A study of Mus musculus with 23 samples.

Results

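Spi1, Cebpb and Csf1r are genes that give a macrophage its identity, and the peaks around them were taken from 5 ChIP-seq peak lists of macrophages. Members were all peaks whose centre lay in a window around each gene on mouse build mm9. The Spi1 window ran from 90890000 to 90985000 of chromosome 2, the Cebpb window from 167480000 to 167620000 of chromosome 2, and the Csf1r window from 61240000 to 61320000 of chromosome 18. They held 77 of the 58278 peaks of the 5 lists, of which 20 lay in the Spi1, 39 in the Cebpb and 18 in the Csf1r window. The windows were set by position and not by height, but they were chosen with earlier results of these data known.

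Spi1 encodes PU.1, an ETS-family transcription factor that opens chromatin at macrophage enhancers and without which macrophages do not form. Cebpb encodes C/EBPβ, a basic leucine zipper factor that binds beside PU.1 at many macrophage enhancers and is itself induced by inflammatory signals. Csf1r encodes the receptor for colony stimulating factor 1, on which macrophages depend for survival, and is a classic target of PU.1. The p65 (RelA) subunit of NF-κB enters the nucleus after Toll-like receptors are engaged and binds largely at enhancers that such lineage factors already mark. LXRβ is a nuclear receptor for oxysterols that binds DNA with RXR and recruits the corepressor NCoR when it has no ligand.

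The p65 lists come from primary thioglycollate-elicited peritoneal macrophages, and the groups used were NCoR knockout with KLA, wild type with KLA, NCoR knockout untreated and wild type untreated. Knockout cells carried NCoR fl/fl alleles and Lys M-Cre +/-, and wild type cells carried NCoR fl/fl alleles with Lys M-Cre -/-, all on C57BL/6, so both genotypes were floxed. Lys M-Cre acts in myeloid cells, and how completely NCoR was lost cannot be read from these lists. The labels give male mice of 6 to 8 weeks. KLA is Kdo2-Lipid A, the lipid A part of endotoxin and a ligand of TLR4, and was given at 100 ng/ml for 1 h after overnight serum starvation. The fifth list maps biotin-tagged LXRβ, caught with streptavidin beads, in a RAW264.7 macrophage line that carries BirA and BLRP-LXRβ, after 2 h with 1 µM GW3965, an LXR agonist. Each group was 1 library, so differences could not be set against a spread between replicates, and no test between groups was run. Intervals are at 95% and cover counting error only, and tags are not independent molecules.

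The libraries held 1673506 tags (knockout, KLA), 2120392 (wild type, KLA), 786121 (knockout, untreated), 777228 (wild type, untreated) and 11758634 (LXRβ). Heights are the normalized counts that the authors deposited, scaled to 10000000 tags per library, and 1 tag was worth 5.98, 4.72, 12.7, 12.9 and 0.91 in the same order. The lowest listed heights were 29.9, 18.9, 63.6, 64.3 and 8.2, and a site missing from a list may hold tags below them. Of the 5, only the list of wild type cells with KLA was called without an input library. A peak counted as listed elsewhere when it overlapped a peak of the other list by 1 bp or more. No mm9 gene annotation was used, so peaks are given by position and were not assigned to exons, introns or promoters. In RefSeq gene order Spi1 lies between Slc39a13 and Mybpc3, Cebpb between Tmem189 and Ptpn1, and Csf1r between Pdgfrb and Hmgxb3, and a window peak may belong to a neighbour.

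The DNA under the peaks was not read. The RefSeq promoter table, on build GRCm38.p6, has an entry for Cebpb and none for Spi1 or Csf1r. The 250 bases before the Cebpb start, on the plus strand at chr2:167688665-167688914 of that build, are shown because this window held the most peaks. Whether a peak covers them was not determined. Capitals mark GGAA, the core that ETS factors such as PU.1 contact, on either strand.
Cebpb promoter: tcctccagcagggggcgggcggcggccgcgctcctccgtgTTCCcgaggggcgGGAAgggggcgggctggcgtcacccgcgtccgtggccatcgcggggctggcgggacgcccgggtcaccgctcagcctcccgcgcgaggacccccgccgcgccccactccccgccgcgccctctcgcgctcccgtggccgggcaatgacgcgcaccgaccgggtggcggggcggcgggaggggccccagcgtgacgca
The stretch is 81.6% G and C, against a median of 52.4% over the 32851 promoter stretches of the same length. GGAA was found 2 times, without overlap with another motif searched, and 93.4% of all stretches hold it. The κB motif, TTGCNNAA (C/EBP), TGANTCA (AP-1) and the nuclear receptor motif AGGTCA were searched on both strands and not found in this stretch. They occur in 5.00%, 9.56%, 6.75% and 14.0% of all stretches.

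After KLA, p65 peaks crowded into all 3 windows, and the Cebpb window held one of the tallest p65 sites of the whole genome. Knockout macrophages had 8 peaks in the Spi1, 14 in the Cebpb and 5 in the Csf1r window, and wild type macrophages had 8, 20 and 10. Per 100 kb this was 8.42, 10.0 and 6.25 peaks in knockout cells, where the whole list averaged 0.885, and 8.42, 14.3 and 12.5 in wild type cells, where it averaged 1.17. The whole-list averages are over the stretch from the first to the last peak of each chromosome. Window peaks were also tall. Their median height was 119.5 in knockout and 80.2 in wild type cells, against list medians of 53.8 and 42.4. The Csf1r window in wild type cells was an exception. Its median of 42.4 equalled that of the list, and 4 of its 10 peaks lay above it. Without KLA the windows held 1 knockout and 3 wild type peaks, or 0.317 and 0.952 per 100 kb over the 3 windows. The whole untreated lists held 2227 knockout and 702 wild type peaks, or 0.0891 and 0.0288 per 100 kb. These few untreated peaks were thus also denser in the windows than over their lists.

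**Figure D1:**
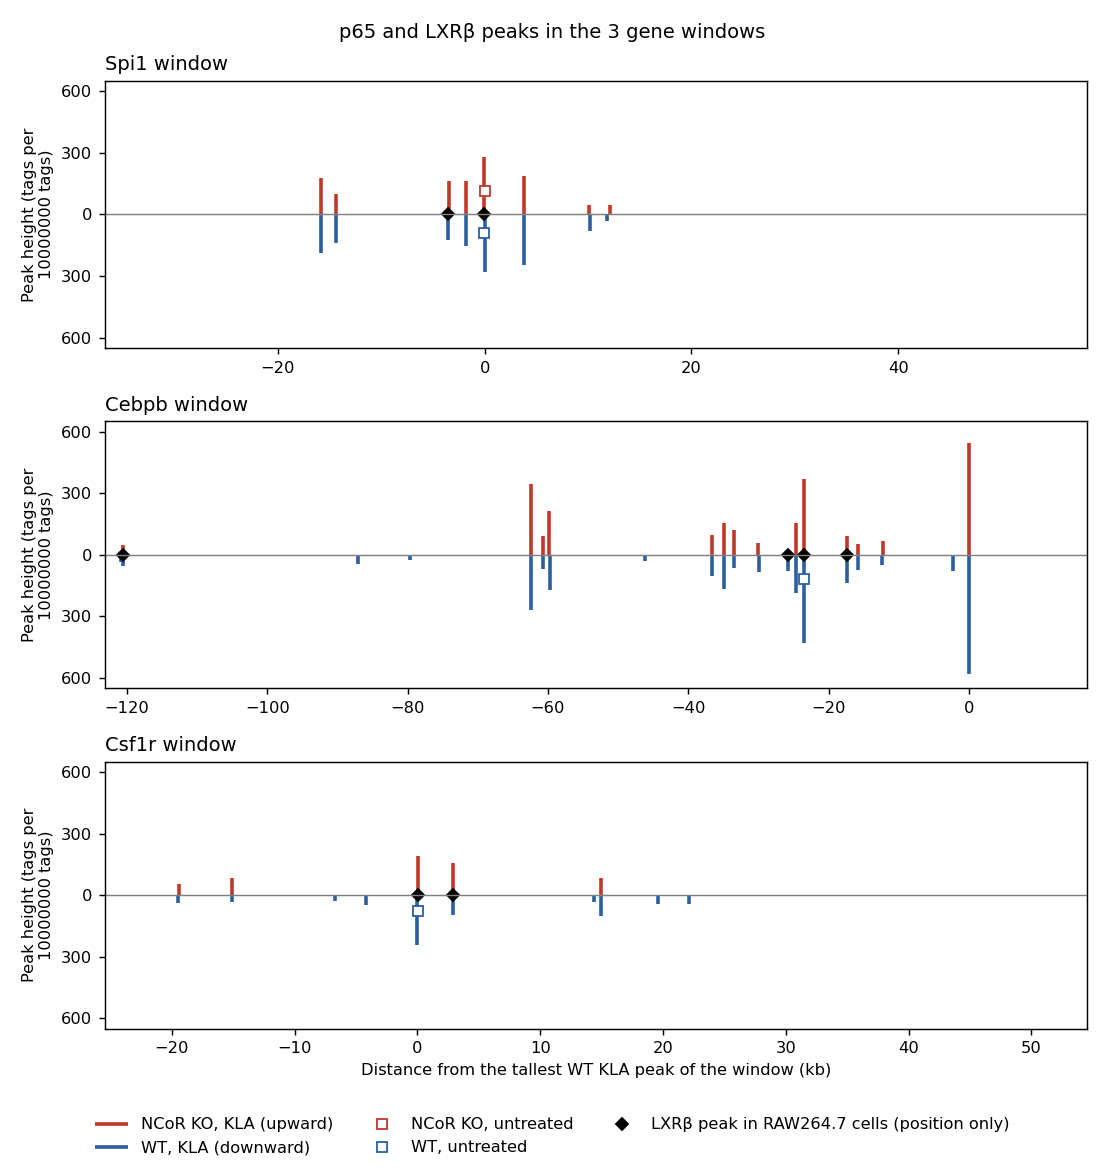
Each panel is one gene window, with distance from its tallest wild type KLA peak in kb on the x axis and peak height on the y axis, NCoR knockout KLA peaks drawn upward and wild type KLA peaks downward. Open squares are untreated p65 peaks and black diamonds the positions of LXRβ peaks in RAW264.7 cells. The tall sites stand opposite each other in both genotypes, and the tallest, at 543.8 in knockout and 580.1 in wild type cells, is at distance 0 of the Cebpb window.

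At Spi1, all peaks lay within a stretch of 27.9 kb in knockout and 27.6 kb in wild type KLA cells, with a median spacing of 2061 and 1847 bp. The tallest site, from 90926605 to 90926776, reached 280.8 (206 to 373) in knockout KLA cells and 278.3 (212 to 359) in wild type KLA cells. It was also listed without KLA, at 114.5 (52.4 to 217) in knockout and 90.1 (36.2 to 186) in wild type cells, and it carried an LXRβ peak of 11.8 in RAW264.7 cells. It was thus in all 5 lists, as were 40 of the 2743 LXRβ peaks (1.46%).

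The next Spi1 site, from 90930462 to 90930612, held 185.2 in knockout and 245.2 in wild type KLA cells. At 90910799 to 90911001 the heights were 179.3 in knockout and 188.6 in wild type KLA cells. Both were in the KLA lists of both genotypes and in no other list. Between them, the site from 90923122 to 90923305 held 161.3 in knockout and 122.6 in wild type KLA cells and an LXRβ peak of 11.8. Its ratio of knockout to wild type height, 1.32 (0.739 to 2.35), was the highest of the 7 Spi1 sites listed in both genotypes.

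The site from 90924793 to 90924957 held 161.3 in knockout and 155.6 in wild type KLA cells, and that from 90912279 to 90912423 held 101.6 in knockout and 141.5 in wild type KLA cells. The lowest ratio, 0.596 (0.223 to 1.46), was at the low site from 90936730 to 90936960, with 47.8 in knockout and 80.2 in wild type KLA cells. All these intervals include a ratio of 1. One knockout KLA peak of 47.8, from 90938791 to 90938935, was not listed in wild type cells, and one wild type KLA peak of 33.0, from 90938447 to 90938579, was not listed in knockout cells. Their centres lay 350 bp apart. In each genotype the other 7 of 8 peaks were listed in the other genotype. The whole-list shares were 71.7% for knockout and 54.0% for wild type KLA peaks.

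Cebpb had the widest array, spread over 121 kb in both genotypes. The site from 167603042 to 167603194 reached 543.8 (438 to 668) in knockout and 580.1 (482 to 692) in wild type KLA cells. It ranked 16 of 22585 knockout and 7 of 30021 wild type KLA peaks by height. Neither untreated list had a peak there, and no LXRβ peak overlapped it. The nearest untreated wild type peak was centred 23448 bp from the wild type KLA peak, and the nearest untreated knockout peak 147549 bp from the knockout KLA peak.

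The second Cebpb site, from 167579508 to 167579711, held 370.5 (284 to 475) in knockout KLA cells and 429.2 (346 to 527) in wild type KLA cells. It had no untreated knockout peak, an untreated wild type peak of 115.8 (52.9 to 220), and the tallest LXRβ peak of the 3 windows, at 17.3. The next, from 167540677 to 167540839, held 346.6 in knockout and 268.8 in wild type KLA cells, ranking 113 in the knockout and 359 in the wild type list, again with no untreated and no LXRβ peak. These 3 sites carried 52.4% of the summed KLA height of the window in knockout and 46.8% in wild type cells.

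Further Cebpb sites were lower than these in both genotypes. Those named next still stood above the list medians of 53.8 in knockout and 42.4 in wild type KLA cells. That from 167543246 to 167543416 held 215.1 in knockout and 169.8 in wild type KLA cells. Those from 167568090 to 167568243 and from 167578439 to 167578590 both held 155.4 in knockout KLA cells, against 165.1 and 183.9 in wild type KLA cells. The highest knockout to wild type ratio was 1.81 (0.87 to 3.87), from 167569515 to 167569692, with 119.5 in knockout and 66.0 in wild type KLA cells. The lowest was 0.655 (0.327 to 1.26), from 167585624 to 167585824, with 89.6 in knockout and 136.8 in wild type KLA cells and an LXRβ peak of 10.9.

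All 14 knockout KLA peaks of the Cebpb window were listed in wild type cells, against 71.7% of the whole knockout list. Of the 20 wild type KLA peaks, 14 (70%) were listed in knockout cells, against 54.0% of the whole wild type list, and 6 were not. The tallest of these were 2 peaks of 80.2, from 167577223 to 167577355 and from 167600820 to 167600952, with the nearest knockout KLA peaks centred 1222 and 2236 bp away. The first of them coincided with an LXRβ peak of 10.0. Their local ratios, the authors' fold over the surrounding 10000 bp, were 4.56 and 4.03, where listing required 4-fold. The other wild type KLA peaks of this window without a knockout peak had local ratios of 11.68 to 26.39. The shared site from 167542363 to 167542549 had local ratios of 4.43 in knockout and 4.88 in wild type KLA cells. Whether the limit bears on which peaks were listed in 1 genotype only was not tested.

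Csf1r had the lowest KLA peaks, with a median height of 83.7 in knockout and 42.4 in wild type KLA cells. At Spi1 the median was 161.3 in knockout and 148.6 in wild type KLA cells, and at Cebpb 107.5 in knockout and 80.2 in wild type KLA cells. The site from 61265370 to 61265572 was the tallest, at 191.2 (131 to 270) in knockout and 240.5 (179 to 316) in wild type KLA cells. Like the second Cebpb site it had no untreated knockout peak, an untreated wild type peak, here of 77.2 (28.3 to 168), and an LXRβ peak, here of 8.2. It also had the lowest knockout to wild type ratio of the window, 0.795 (0.494 to 1.26). Beside it, the site from 61268250 to 61268444 held 155.4 in knockout and 94.3 in wild type KLA cells, with an LXRβ peak of 11.8.

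The other 3 Csf1r sites listed in both genotypes had no LXRβ peak. That from 61280303 to 61280462 held 83.7 in knockout and 103.8 in wild type KLA cells. That from 61250252 to 61250402 held 83.7 in knockout and 33.0 in wild type KLA cells, a ratio of 2.54 (0.957 to 7.42) that rests on 14 and 7 tags. It was the only 1 of the 26 shared sites with a ratio of 2 or more, in a comparison where 6.28% of all shared sites reached that and 2.43% a ratio of 0.5 or less. The last, from 61245908 to 61246129, held 53.8 in knockout and 37.7 in wild type KLA cells. Of the 10 wild type KLA peaks, 5 (50%) were listed in knockout cells, near the 54.0% of the whole wild type list. The other 5 held 28.3 to 47.2, and the tallest of them lay from 61261210 to 61261342. Next in height were 2 peaks of 42.4, from 61284999 to 61285131 and from 61287451 to 61287583.

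With KLA given to both genotypes, the question was whether p65 at these genes differed when NCoR was lost. Over the 3 windows, 26 of 27 knockout KLA peaks (96.3%, exact Clopper-Pearson interval 81.0 to 99.9) were listed in wild type cells, against 71.7% of the whole knockout list. Of 38 wild type KLA peaks, 26 (68.4%, 51.3 to 82.5) were listed in knockout cells, against 54.0% of the whole wild type list. Tall peaks are found again more often. Among peaks above the median height of their list, 22 of 22 knockout window peaks were found in wild type cells, against 91.7% of such peaks in the whole list, and 24 of 27 wild type window peaks in knockout cells, against 81.3%. Peaks of one window share a locus and are not replicates.

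The 12 wild type KLA peaks without a knockout peak were low, with a median height of 37.7 and a highest of 80.2, where the 26 shared ones had a median of 129.7. Of these 12, 10 were below 47.8, the lowest knockout KLA height in the windows. At 47.8 or more, knockout cells had 27 window peaks and wild type cells 26, and the whole lists held 13611 knockout and 11444 wild type peaks. Neither this limit nor the next could remove a knockout window peak, as both are lowest knockout heights. The near-equal counts at 47.8 thus do not show that the genotypes hold equally many sites. At 29.9 or more, the lowest height of the whole knockout list, there were 27 knockout and 35 wild type window peaks, where the whole lists ran the other way, with 22585 knockout and 20345 wild type peaks. The missing input in the wild type call moves with this difference, as do library depth, peak width and the genome size set for the call. Their parts in it were not tested. In the knockout KLA list the scaled input at the window peaks was 0.1 to 0.8 tags. Listing there required 4-fold over the input, so these values do not show the input at peaks listed in wild type cells only.

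At the 26 shared sites the knockout to wild type height ratio had a median of 0.939 and ran from 0.596 to 2.54, with 11 sites above and 15 below 1. Over all 16202 shared sites the median was 1.09, with quartiles of 0.845 and 1.40. Peak width was fixed at 144 bp for knockout KLA and at 132 bp for wild type KLA, and divided by width the median ratios were 0.862 in the windows and 0.996 over all shared sites. By gene the median ratio was 0.951 at the 7 Spi1, 0.929 at the 14 Cebpb and 1.43 at the 5 Csf1r sites. With tags summed over the shared sites the ratios were 0.922 (0.760 to 1.12), 0.986 (0.863 to 1.12) and 1.11 (0.837 to 1.48). The interval of the ratio included 1 at all 26 sites, while over all shared sites it lay above 1 at 1.81% and below 1 at 1.28%.

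**Figure D2:**
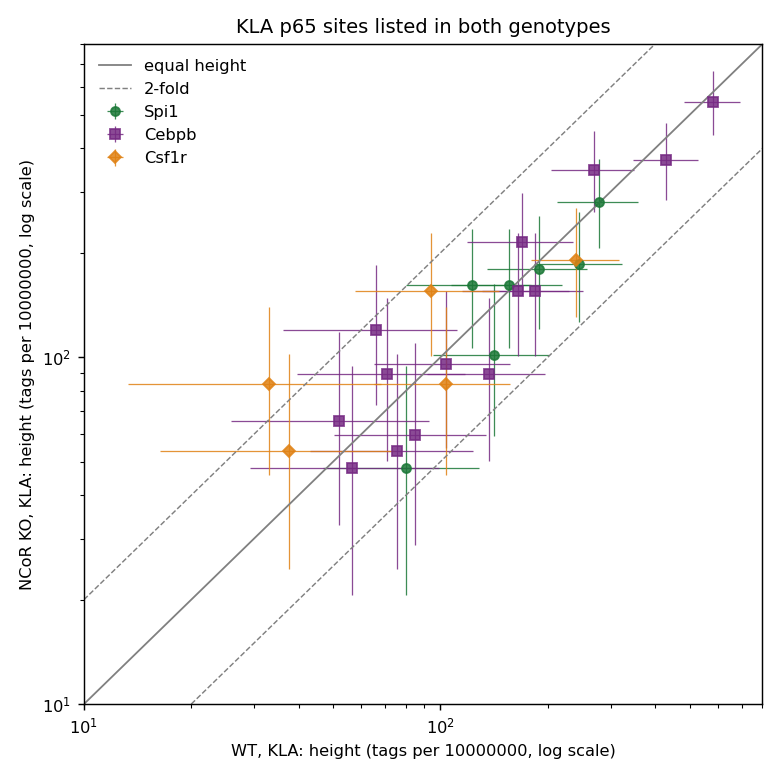
Each point is one of the 26 sites with a KLA p65 peak in both genotypes, with its wild type height on the x axis and its NCoR knockout height on the y axis, both in tags per 10000000 on log scales, and 95% Poisson intervals of the tags as bars. Points follow the line of equal height, and 1 Csf1r site, at 83.7 in knockout and 33.0 in wild type cells, lies beyond the upper 2-fold line.

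The comparison of KLA-treated with untreated cells asked which sites p65 held before the stimulus. In knockout cells 1 of 27 KLA window peaks was listed without KLA, against 4.08% of the whole knockout KLA list. In wild type cells 3 of 38 were, against 1.77% of the whole wild type KLA list. Each window had exactly 1 such wild type site, which at Spi1 and Csf1r was the tallest and at Cebpb the second tallest KLA site. Untreated lists began at a greater height. Of the window peaks tall enough to reach the lowest untreated height, 1 of 21 was listed untreated in knockout cells, against 6.48% of such peaks in the whole list, and 3 of 24 in wild type cells, against 4.59%.

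At the Spi1 site the height with KLA was 2.45 times (1.19 to 5.69) the untreated height in knockout cells and 3.09 times (1.41 to 8.02) in wild type cells. In wild type cells the ratio was 3.71 (1.87 to 8.36) at the Cebpb site and 3.12 (1.34 to 8.88) at the Csf1r site. The median over all shared sites was 0.94 in knockout and 1.28 in wild type cells, and 16.7% of those sites in knockout and 32.1% in wild type cells were 2-fold or more higher with KLA. A site entered these ratios only if both lists held it. Untreated heights thus began at 63.6 in knockout and 64.3 in wild type cells, and KLA heights at 29.9 and 18.9. How far these unequal limits move the ratios was not tested. Peaks were 144 bp wide with KLA and 126 bp without it in knockout cells, and 132 and 103 bp wide in wild type cells. Divided by width, the ratio at the Spi1 site was 2.15 in knockout and 2.39 in wild type cells. In wild type cells it was 2.87 at the Cebpb and 2.41 at the Csf1r site. The medians over all shared sites became 0.823 in knockout and 0.993 in wild type cells. The direction depends on the scaling. Relative to the tags lying in peaks, which were 295543 with KLA and 18633 without it in knockout cells and 372491 with KLA and 6464 without it in wild type cells, the ratio was 0.329 at the Spi1 site in knockout cells, and in wild type cells 0.146 at Spi1, 0.175 at Cebpb and 0.148 at Csf1r.

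Without KLA, the Spi1 site was the only window site listed in both genotypes, and its knockout to wild type ratio was 1.27 (0.421 to 4.02), or 1.03 per bp of peak. The Cebpb and Csf1r sites rested on 9 and 6 wild type tags. The knockout list does not give the tags at these sites, so no ratio of the genotypes can be given there. In the whole untreated wild type list 40.5% of peaks were listed in knockout cells.

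**Figure D3:**
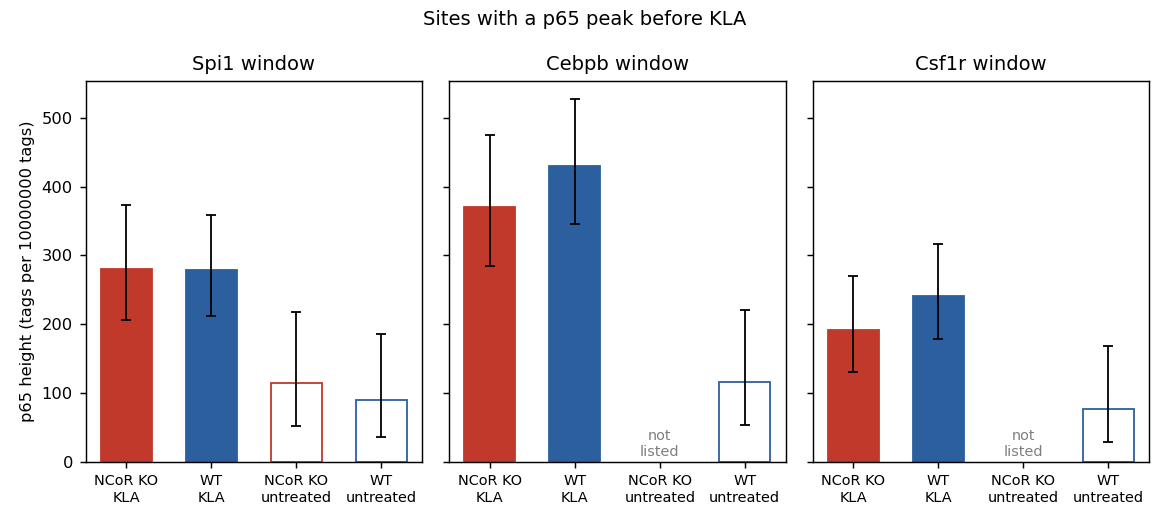
Bars give the p65 height, in tags per 10000000 tags, at the one site of each gene window that was listed in untreated wild type cells, in NCoR knockout KLA, wild type KLA, knockout untreated and wild type untreated cells from left to right, with 95% Poisson intervals. KLA heights run from 191.2 to 429.2 and untreated heights from 77.2 to 115.8, and the Cebpb and Csf1r sites were not listed in untreated knockout cells.

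LXRβ peaks of GW3965-treated RAW264.7 cells in these windows coincided with p65 sites of KLA-treated primary macrophages. The windows held 8 LXRβ peaks, of which 2 were at Spi1, 4 at Cebpb and 2 at Csf1r. Of the 8, 7 (87.5%, 47.3 to 99.7) overlapped a knockout KLA p65 peak, against 34.8% of all LXRβ peaks. All 8 (63.1 to 100%) did so for p65 in wild type KLA cells, against 42.4% of all LXRβ peaks, and for its peaks of 29.9 or more, against 35.5%. One of the 8 overlapped an untreated knockout p65 peak, against 7.29% of all, and 3 of the 8 an untreated wild type p65 peak, against 3.57%. These cells differ in source and treatment, so overlap means the same position and not binding in one cell.

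The LXRβ peaks themselves were modest. Their heights ran from 8.2 to 17.3 with a median of 11.35, against a list median of 10.9, and rested on 9 to 19 tags with 1.4 to 3 scaled input tags. The tallest, at the second Cebpb site, ranked 345 of 2743. Besides those named above, the fourth Cebpb peak, from 167482505 to 167482625, held 8.2, at a p65 site of 47.8 in knockout and 56.6 in wild type KLA cells. An LXRβ peak lay at 7 of 27 knockout KLA p65 window peaks, against 4.23% of the whole list, and at 8 of 38 wild type ones, against 3.87%. These p65 peaks had a median height of 161.3 in knockout and 129.7 in wild type KLA cells. Those without one had medians of 98.6 in knockout and 73.1 in wild type KLA cells. Over the whole lists, p65 peaks with LXRβ were likewise the taller, with medians of 71.7 against 53.8 in knockout and 56.6 against 37.7 in wild type KLA cells.

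**Figure D4:**
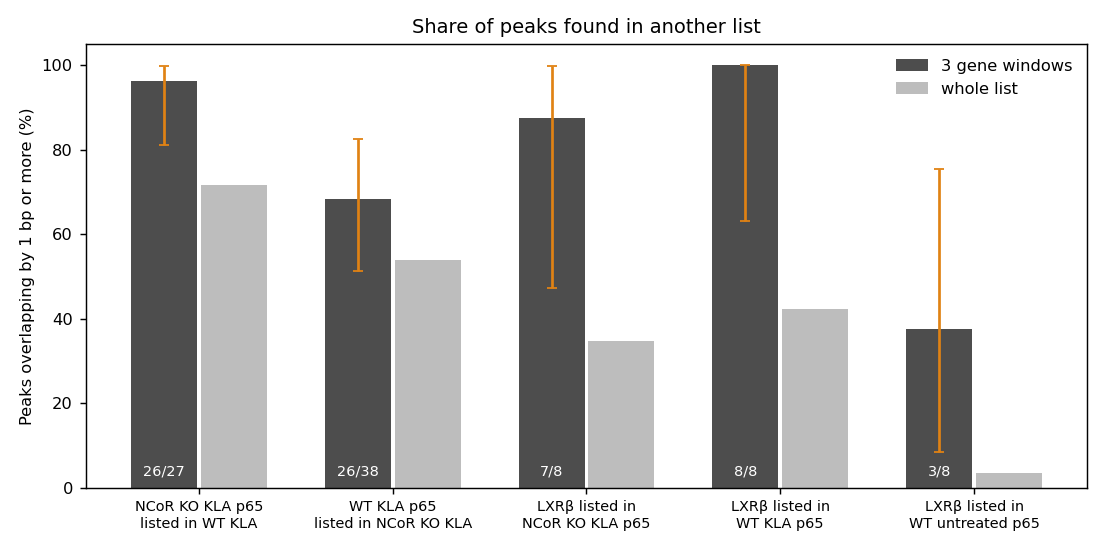
Dark bars give the share of window peaks of one list that overlap a peak of another, with 95% exact Clopper-Pearson intervals and the counts printed inside, and light bars the same share over the whole list. All 8 LXRβ window peaks overlapped a wild type KLA p65 peak, against 42.4% of all LXRβ peaks.

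The shape of the p65 window peaks was not used to choose them. The authors' focus ratio, which measures how cleanly tags of the 2 strands flank the centre, had a median of 0.775 in knockout and 0.762 in wild type KLA window peaks, against 0.760 and 0.758 over the lists. The local ratio over the surrounding 10000 bp had a median of 15.3 in knockout and 12.6 in wild type KLA window peaks, against 28.0 and 26.7 over the lists. Neighbouring peaks fall within that region, and their part in the lower ratio was not tested. Whether binding near Spi1, Cebpb or Csf1r went with a change in their transcription was not analysed here.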

How the data were processed

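Of the 23 samples, 5 had a peak list and were analysed. The 6 GRO-seq, 6 H3K4me2, 4 H4K5ac and 2 input samples were not analysed here. Groups came from the sample titles, with 1 library each. Bowtie 0.12.7, mm9 and HOMER are named in the submitters' processing notes, and HOMER's version was not stated in the sources used here. Per the file headers, each library was run alone through findPeaks with the factor style, keeping a false discovery rate of 0.001 and at most 1 tag per bp. They required 4-fold over the surrounding 10000 bp and, with an input, 4-fold over it. The tag threshold was 5 for p65 and 9 for LXRβ. The genome size was set to 4000000000, except in the LXRβ and wild type KLA calls, which used 2000000000. The LXRβ tag set has a name ending in "All" and may pool several runs.

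The deposited normalized tag count is a signal scaled to 10000000 tags per library, per the file headers. Tags behind a height were that signal times the library total. For LXRβ they were the deposited findPeaks score, since those heights were scaled to another total than the header gives. In the wild type KLA list the score differed from these tags at 24 of 38 window peaks. The focus ratio is a fraction and the local fold a ratio, both computed by the authors. Each was used to describe peaks within a list.

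Overlaps, exact Poisson and Clopper-Pearson intervals, and ratio intervals (exact, conditional on the summed tags) were computed with Python 3.11.15, numpy 2.4.6, pandas 2.3.3 and scipy 1.17.1. Where several peaks overlapped, a height ratio took the one centred closest. The code for overlaps and ratios was run on simulated lists with planted matches. Planted peaks were shifted by less than the peak width, so their overlap was certain. This checked the code and not the choice of rule. The windows, lists and named sites were chosen with earlier results of these data known. Named were, per window, every untreated and LXRβ peak, the 5 tallest KLA peaks of each genotype, the tallest listed in 1 genotype only, and the shared sites with the highest and lowest ratio. Alternatives were other overlap rules, window limits, lowest heights, height measures and scaling. Counts around other macrophage genes were not made, as they needed an mm9 annotation.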

Additional observations from a re-analysis of the deposited data

How the results depend on the processing

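Of 117 alternative values of 26 results, 110 stayed within 1.5 times the main count or within the interval of the main ratio. Some could not change, such as knockout KLA peak counts at limits set by their own lowest height. For a median ratio that interval was a spread over sites and not counting error. At Spi1 and Csf1r it ran from the lowest to the highest site ratio, which is a wide limit. Scaling by tags in peaks turned the KLA to untreated ratios below 1, to 0.329 in knockout cells at the Spi1 site and to 0.146, 0.175 and 0.148 in wild type cells at the Spi1, Cebpb and Csf1r sites. The alternative divides by a far larger number of tags in peaks with KLA. With peaks at or above the median height of their list, the wild type KLA peaks of the Csf1r window fell to 6 and the LXRβ window peaks to 5. With heights of 47.8 or more, a limit chosen after seeing the data, 3 wild type KLA peaks were left at Csf1r. With a reciprocal overlap of 50%, LXRβ window peaks found in a p65 list fell to 6 of 8 for knockout KLA, 6 for wild type KLA and 2 for untreated wild type, and stayed at 1 for untreated knockout. The share of all LXRβ peaks under this stricter rule is not given, so these counts cannot be set against the whole list. All 8 LXRβ window peaks still overlapped a wild type KLA peak of at least 29.9, another limit chosen after seeing the data. No paired analysis was possible because each group was 1 library, and leaving out a replicate was not possible for the same reason. Depth limits the untreated lists most, where 1 tag moves a height by 12.7 or 12.9.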
